A study of Mus musculus with 10 samples.

Results

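The genes described here are 35 transcripts of the mouse oocyte, chosen by name as members of a module of oocyte genes: coat proteins of the egg, oocyte growth factors, germline transcription factors, regulators of stored RNA, and proteins that the egg passes to the embryo. All 35 had a row among the 24306 genes of the deposited count table, all 35 had counts in every library, and all 35 passed the low-count filter of every fit. They were followed by polyA RNA sequencing of whole ovaries taken at 6 weeks of age, in mice of mixed strain (C57BL/6; 129). The 5 control libraries came from ovaries that were Dmrt1 +/+ with Rara f/f, with Rarb f/f and with Rarg f/f, and lacked Cre (Sf1-Cre-). The 3 Rar mutant libraries had the same alleles with Sf1-Cre (Sf1-Cre+). The 2 Dmrt1 het Rar mutant libraries had Dmrt1 fl/+, Sf1-Cre+ and again f/f alleles at Rara, Rarb and Rarg. Floxed retinoic acid receptor genes were thus shared by all 10 libraries, and only the Cre-positive ones could delete them. Sf1-Cre uses the Nr5a1 promoter, which works in gonadal somatic cells and not in oocytes, so the oocytes themselves are not the intended site of the deletion. The design text counts 2 genotypes with 5 replicates each, and the labels reach this number if both Cre-positive groups are joined, here called the 5 Rar-deleted libraries. The labels do not say whether the libraries of a group came from separate animals or whether ovaries were pooled, so p-values measure the spread between these libraries, which may in part be technical.

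Oocytes grow inside follicles, surrounded by granulosa cells, and during growth they transcribe a large set of germline genes and store much of the RNA for the first divisions of the embryo. They build the zona pellucida coat, secrete GDF9 and BMP15 to the granulosa cells, and receive KIT ligand and small molecules from them in return. In whole ovary the oocytes are few among many somatic cells, so a lower level of an oocyte transcript can mean fewer or smaller oocytes or less RNA in each, and these cannot be told apart in bulk tissue.

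Library depth was 21064856 to 25920131 counts. Rarg, which checks the labels, had 593 to 807 counts in controls and 378 to 501 in Cre-positive libraries, with no overlap. The other receptor genes overlapped, Rara with 490 to 810 counts in controls and 518 to 743 in Cre-positive libraries, and Rarb with 59 to 100 and 50 to 70. Whole-gene counts do not single out the floxed exons, so only Rarg bears out the labels here, and Rar-deleted names the labelled genotype. Dmrt1 was all but absent (0 counts in every library except 1, which had 5), and its floxed allele could not be checked. Sample titles carry a number, and it was under 7800 in 4 libraries, namely both Dmrt1 het Rar mutants, Rar mutant 1 and control 1. The labels do not say what the number stands for. These 4 libraries are shown apart throughout. The label of ovary was met by the 15 granulosa, 10 corpus luteum and 10 theca markers, all with counts, whereas 8 markers of sperm and testis germ cells summed to 2.12 to 14.7 CPM (counts scaled to a common library total) with Tnp1 at 0 throughout.

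Promoters of oocyte genes are known for E-boxes, the letters CANNTG, which read the same on both strands and are bound by helix-loop-helix factors such as FIGLA and SOHLH1. RefSeq promoter sequences (GRCm38.p6) were matched for 26 of the 35 genes, and not for Zp1, Zp2, Gdf9, Nlrp14, Npm2, H1foo, Dppa3, Mos and Oas1d. In the 250 bases before a listed start, 22 of the 26 genes (84.6%) held at least 1 E-box, against 69.3% of 27025 genes with a promoter in the same table. The homeobox letters TAATTG, read on both strands, were found in 2 of the 26 (7.69%, against 8.3% of all genes), and TAATTA in another 2 (7.69% against 5.65%). The TATA letters TATAAA, also read on both strands, were found in 4 (15.4% against 14.3%). In these 4 they lay on the opposite strand, as TTTATA on the gene's own strand. These are matches of letters only, not shown sites. The promoters of 5 genes are shown because they belong to abundant members (Zp3, Padi6), to the factors Nobox and Sohlh1, the latter the member with the largest difference between libraries of low and high title number, and to Bmp15, whose share of oocyte RNA was higher in the low-numbered libraries. Each is the 250 bases before the start, 5′ to 3′ on the gene's strand, with E-boxes in capitals. Zp3 lies on the plus strand (chr5:135979855-135980104), and Padi6 (chr4:140742644-140742893), Nobox (chr6:43309555-43309804), Sohlh1 (chr2:25847249-25847498) and Bmp15 (chrX:6320725-6320974) lie on the minus strand.
Zp3: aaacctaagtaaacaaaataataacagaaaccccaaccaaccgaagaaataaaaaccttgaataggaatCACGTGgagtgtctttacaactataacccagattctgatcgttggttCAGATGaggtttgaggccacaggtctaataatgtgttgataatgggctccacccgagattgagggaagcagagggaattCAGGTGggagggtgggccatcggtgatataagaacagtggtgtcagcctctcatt
Padi6: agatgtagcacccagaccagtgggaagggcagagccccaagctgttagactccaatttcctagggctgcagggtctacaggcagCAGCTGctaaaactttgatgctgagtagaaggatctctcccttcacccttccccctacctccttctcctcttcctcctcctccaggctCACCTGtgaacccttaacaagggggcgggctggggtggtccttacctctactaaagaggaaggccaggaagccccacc
Nobox: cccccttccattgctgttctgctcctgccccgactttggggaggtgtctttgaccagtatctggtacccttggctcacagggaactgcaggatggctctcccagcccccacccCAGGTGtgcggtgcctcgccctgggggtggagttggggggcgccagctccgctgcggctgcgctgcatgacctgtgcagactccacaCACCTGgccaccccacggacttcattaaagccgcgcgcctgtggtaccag
Sohlh1: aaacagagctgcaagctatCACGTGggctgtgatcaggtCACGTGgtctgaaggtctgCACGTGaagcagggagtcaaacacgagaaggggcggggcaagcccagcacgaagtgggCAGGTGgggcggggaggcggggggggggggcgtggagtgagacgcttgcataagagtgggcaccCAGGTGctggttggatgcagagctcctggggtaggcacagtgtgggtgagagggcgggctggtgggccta
Bmp15: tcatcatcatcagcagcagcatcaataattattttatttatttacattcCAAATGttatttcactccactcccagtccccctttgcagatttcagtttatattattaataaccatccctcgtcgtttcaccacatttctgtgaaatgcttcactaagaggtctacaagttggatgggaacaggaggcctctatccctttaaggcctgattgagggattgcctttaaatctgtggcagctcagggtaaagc
Sohlh1 had 5 E-boxes, beginning at positions -231, -211, -192, -134 and -70 from the start, the same number as Oosp1 and Khdc3. Zp3 had 3, Padi6 and Nobox had 2 each, and Bmp15 had 1. The bases that follow the listed start of Bmp15 were not found in its GENCODE M21 transcripts.

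Levels per length were compared by the deposited FPKM (fragments scaled to exon length and library size). In the 5 controls the most abundant members were Zp3, Padi6 and Gdf9. Zp3, which encodes a protein of the zona, was at 60.4 ± 18 FPKM (SD). Padi6, a component of the egg's cytoplasmic lattices, was at 57.8 ± 9.15, and Gdf9, the oocyte growth factor, at 55.9 ± 9.32. The SD ranges of these 3 overlapped, and they overlapped in turn with those of the oocyte linker histone H1foo (49.8 ± 10.9), the maternal-effect gene Nlrp14 (48.6 ± 8.64) and the zona gene Zp2 (43.9 ± 7.29). The lowest were the transcription factors Sohlh1 (0.895 ± 0.491) and Lhx8 (1.78 ± 0.383), the maternal complex gene Khdc3 (1.24 ± 0.408) and the germ cell helicase gene Ddx4 (1.76 ± 0.407). Figla, another early factor, was at 2.25 ± 1.07 FPKM, so 3 of the 4 germline transcription factors were far below the zona and growth factor genes, whereas Nobox stood at 9.22 ± 1.88 FPKM.

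Summed over the 35 genes, controls 1 to 5 had 1445, 1268, 1441, 1539 and 1795 CPM. Rar mutants 1 to 3 had 567, 1295 and 1470.0 CPM, and Dmrt1 het Rar mutants 1 and 2 had 1317 and 1134 CPM. Only Rar mutant 1 lay far below the rest: oocyte transcripts were 0.0567% of its counts (95% Wilson interval 0.0557% to 0.0576%, counting error only) and 0.113% to 0.179% of those of the other 9 libraries. Dmrt1 het Rar mutant 2 was also below every control, whereas Rar mutants 2 and 3 and Dmrt1 het Rar mutant 1 lay within the control range.

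**Figure D1:**
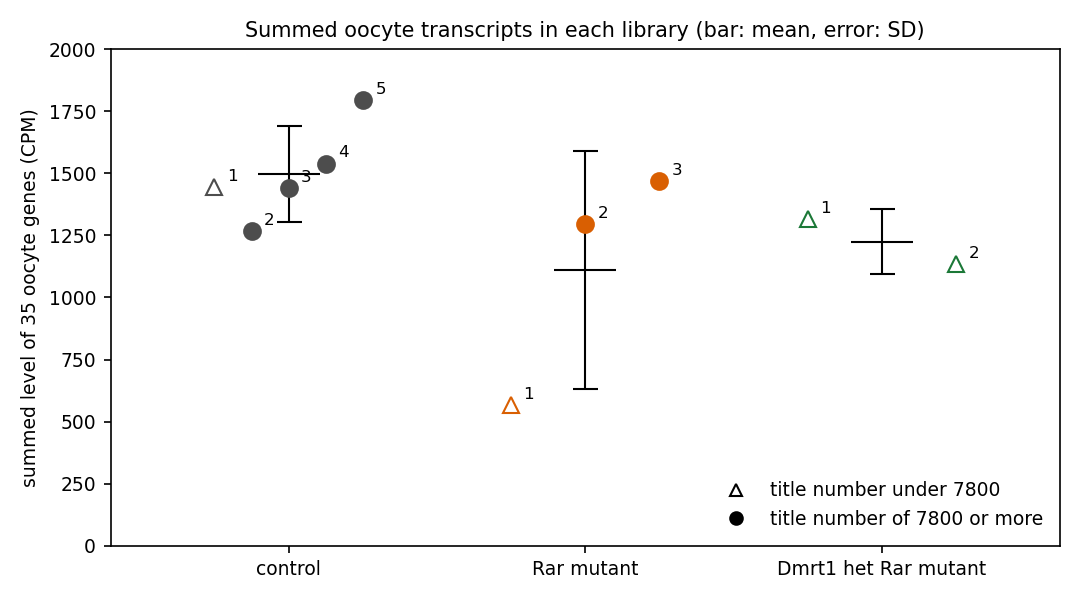
Summed CPM of the 35 oocyte genes in each library (vertical axis) by labelled group, with replicate numbers, group mean and SD; open triangles are title numbers under 7800. Rar mutant 1 stands at 567 CPM, and the other 9 libraries lie between 1134 and 1795 CPM.

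The broadest comparison asked whether oocyte transcripts differed when retinoic acid receptors were deleted in somatic cells. No oocyte gene was called between the 5 Rar-deleted ovaries and the 5 controls, although 34 of the 35 were on the lower side (edgeR's quasi-likelihood test, Benjamini-Hochberg adjusted p under 0.05 over 18954 genes, of which 0.111% were called). The median log2 fold change of the members was -0.37, against 0.00 over all genes tested. At an unadjusted p under 0.05 there was 1 member, Tle6, and 1605 genes in all, and DESeq2 also called 0 of the 35. Without Rar mutant 1 the members' median was -0.19, and with a term for the title number it was -0.19 as well.

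The zona pellucida genes Zp1, Zp2 and Zp3, which build the egg coat, had log2 fold changes of -0.43 (SE 0.27), -0.42 (SE 0.27) and -0.51 (SE 0.34). Zp3 (ENSMUSG00000004948, chr5:135980099-135988624, plus strand) had 54.0, 62.4, 101, 86.3 and 94.1 CPM in controls 1 to 5, 21.8, 69.5 and 82.0 CPM in Rar mutants 1 to 3, and 58.8 and 46.0 CPM in the Dmrt1 het Rar mutants. Rar mutant 1 and Dmrt1 het Rar mutant 2 were below all controls, the other 3 were within the control range, and the lowest control was the library with a title number under 7800. The adjusted p of Zp3 was 0.656 (edgeR).

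The growth factors GDF9 and BMP15, through which the oocyte acts on granulosa cells, gave -0.33 (SE 0.25, adjusted p = 0.672, edgeR) for Gdf9 and -0.14 (SE 0.23, adjusted p = 0.849) for Bmp15. Gdf9 (ENSMUSG00000018238, chr11:53431023-53437904, plus strand) had 96.2, 102, 107, 123 and 143 CPM in controls, 41.0, 111 and 110.5 CPM in Rar mutants, and 99.5 and 89.7 CPM in Dmrt1 het Rar mutants. Bmp15 (ENSMUSG00000023279, chrX:6314107-6320721, minus strand) had 74.9, 45.8, 41.4, 58.1 and 68.1 CPM in controls, 26.6, 49.8 and 57.1 CPM in Rar mutants, and 64.8 and 62.6 CPM in Dmrt1 het Rar mutants. Both were lowest in Rar mutant 1, and for Bmp15 the other 4 Rar-deleted libraries were all inside the control range.

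Of the germline transcription factors, Figla, which drives the zona genes, had the lowest fold change of all members (-0.67, SE 0.47, edgeR adjusted p = 0.659). It had 0.766, 1.70, 1.43, 2.39 and 3.16 CPM in controls, 0.355, 1.79 and 1.43 CPM in Rar mutants and 1.59 and 0.712 CPM in Dmrt1 het Rar mutants, so the groups overlapped widely. Nobox, a homeobox factor of growing follicles, gave -0.37 (SE 0.29), Sohlh1, a factor of primordial follicles, -0.42 (SE 0.61), and Lhx8, a LIM homeobox factor of early oocytes, -0.12 (SE 0.33). Sohlh1 rested on few reads, 5 to 50 counts a library.

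The 7 regulators of germ cell RNA lay between -0.18 (Btg4, which helps clear maternal RNA) and -0.57 (Zar1, which stores it, SE 0.34, edgeR adjusted p = 0.648). Dazl and Cpeb1, which control translation of stored messages, gave -0.33 and -0.29, and the RNA-binding gene Ybx2 gave -0.46. Zar1 had 28, 32.7, 46.6, 50.5 and 48.4 CPM in controls, 9.87, 34.1 and 41.3 CPM in Rar mutants, and 28.6 and 23.6 CPM in Dmrt1 het Rar mutants. Its low values were again in Rar mutant 1 and in libraries with title numbers under 7800, control 1 among them.

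Tle6, a member of the subcortical maternal complex that the embryo needs for its first cleavages (ENSMUSG00000034758, chr10:81590904-81601073, minus strand), was the 1 oocyte gene whose 5 Rar-deleted libraries all lay below all 5 controls. It had 81.0, 75.7, 84.9, 85.2 and 95.3 CPM in controls, 45.6, 71.7 and 75.0 CPM in Rar mutants, and 69.0 and 67.9 CPM in Dmrt1 het Rar mutants. Its log2 fold change was -0.35 (SE 0.16, unadjusted p = 0.0457, adjusted p = 0.584, edgeR's quasi-likelihood test), and over all genes with a mean CPM of 1 or more, 1.03% lay below the controls without overlap. With Rar mutant 1 left out it was -0.24 (SE 0.13), and among the 6 libraries numbered 7800 or more it was -0.14 (SE 0.15). Nlrp5, Ooep, Khdc3 and Padi6, which belong to or work with the same complex, gave -0.37, -0.45, -0.41 and -0.38, with adjusted p from 0.648 to 0.659.

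The remaining members followed the same range. Nlrp14, Nlrp4f, Nlrp9b and Nlrp2, oocyte members of the NLRP family, ran from -0.38 to -0.17. The chromatin genes Npm2, H1foo and Dppa3 gave -0.46, -0.34 and -0.50, and the transcripts Oosp1, Tcl1, Obox1 and Oas1d gave -0.40, -0.31, -0.39 and -0.28. Gja4, which encodes the connexin of the oocyte's gap junctions, gave -0.38 (SE 0.22, edgeR adjusted p = 0.640), and Mos, the kinase that holds the egg in meiosis, gave -0.49. Kit, the receptor for KIT ligand, was the only one not on the lower side (0.02, SE 0.38), and with a term for the title number it was at -0.54.

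**Figure D2:**
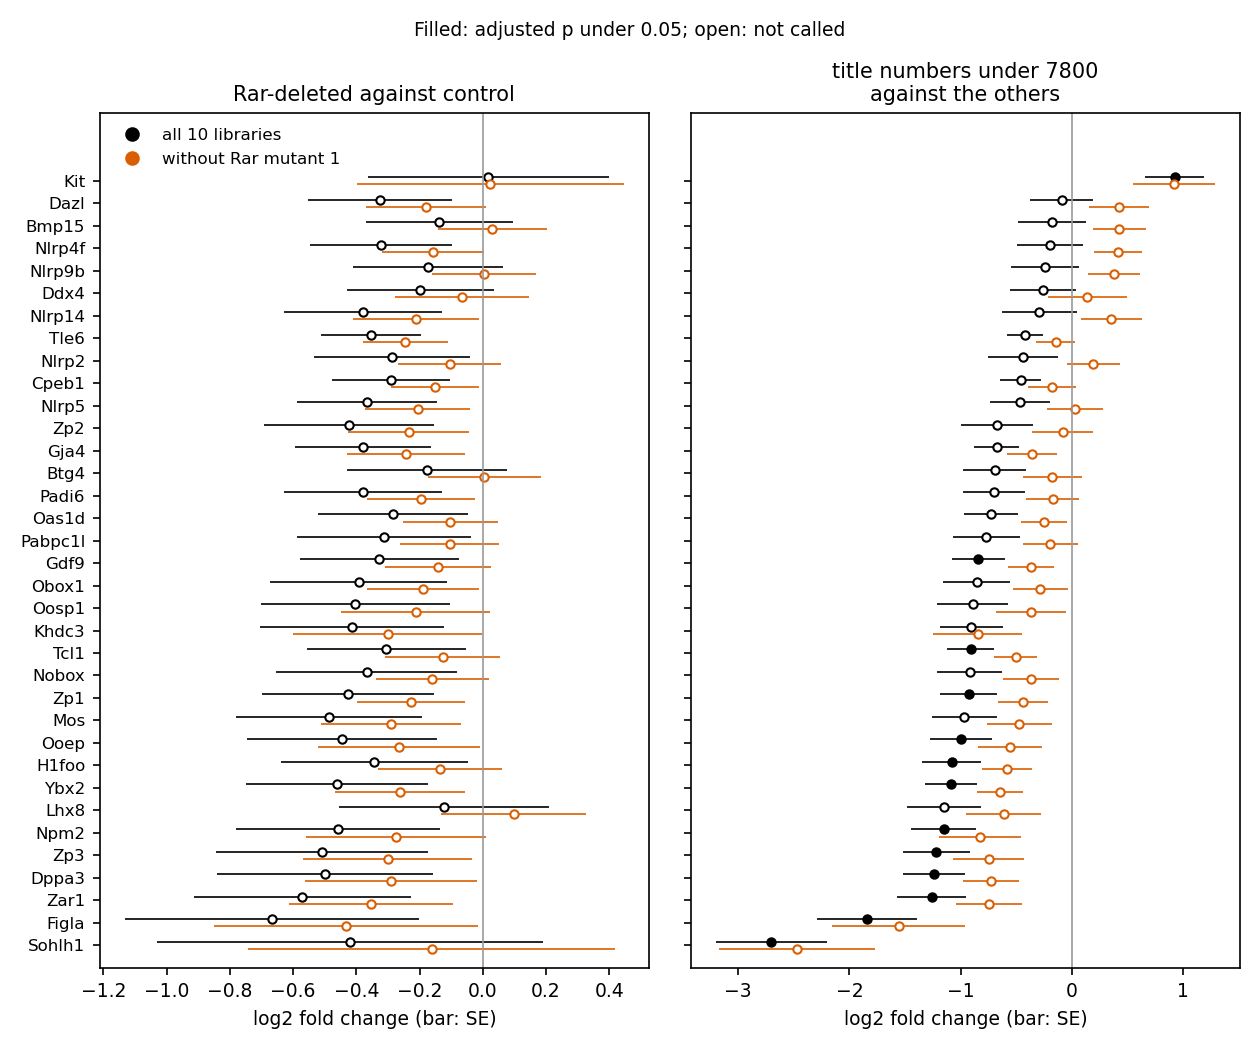
Log2 fold changes of the 35 oocyte genes with SE, for Rar-deleted against control (left) and for libraries of title number under 7800 against the others (right), in all 10 libraries (black) and without Rar mutant 1 (orange); filled points have an adjusted p under 0.05. Filled points occur only on the right and only with all 10 libraries: 12 lower and Kit higher.

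Split by label, 0 of the 35 genes were called in Rar mutants against controls in the 3-group edgeR fit of 20570 genes, of which 0.00972% were called, and 0 in Dmrt1 het Rar mutants against controls, where 0.0194% were called. The first had 0 members and 1944 genes at an unadjusted p under 0.05, the second 0 members and 3563 genes, and DESeq2 called 0 members in both. These comparisons share the 5 controls. In Rar mutants 35 of 35 were on the lower side (median -0.34, all genes -0.02), and the smallest p belonged to Cpeb1 (-0.43, SE 0.21, adjusted p = 0.567) and Dazl (-0.50, SE 0.26, adjusted p = 0.588). Cpeb1 and Tle6 lay below all controls in all 3 Rar mutants, which was so for 3.53% of all genes. In Dmrt1 het Rar mutants 33 of 35 were on the lower side (median -0.40, all genes -0.02; with a term for the title number 5 of 35 and a median of 0.19), with Sohlh1 at -1.23 (SE 0.86), Dppa3 at -0.84 (SE 0.47, adjusted p = 0.352) and Kit at 0.59 (SE 0.39). Both Dmrt1 het libraries lay below all controls for 7 members (Nobox, Ooep, Tle6, Dppa3, Mos, Gja4 and Obox1), and for 11.4% of all genes.

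Without Rar mutant 1, oocyte genes were no longer mostly on the lower side in Rar mutants against controls. The members' median was then 0.00 and 19 of the 35 were negative, with Zp3 at 0.01 (SE 0.28), Gdf9 at 0.04 (SE 0.18), Nobox at 0.00 (SE 0.21) and Dazl at -0.27 (SE 0.24). Among libraries of higher title number alone (2 Rar mutants against 4 controls) the median was -0.05, 26 of the 35 were on the lower side, and 0 were called by edgeR while 142 of 19610 genes were. At an unadjusted p under 0.05 there were 1 member, Kit, and 2886 genes. For Padi6, Gdf9 and Nlrp14, 3 abundant members, the log2 fold changes there were -0.06 (SE 0.19), -0.02 (SE 0.17) and 0.03 (SE 0.22). Kit had the lowest, -0.70 (SE 0.26, edgeR adjusted p = 0.262).

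Between the 2 Dmrt1 het Rar mutants and the 3 Rar mutants, 0 of the 35 genes and 0% of the 20570 genes were called (edgeR; DESeq2 called 0 members and 626 genes). At an unadjusted p under 0.05 there were 3467 genes, with 1 member, Kit (1.14, SE 0.43, adjusted p = 0.252). The members' median was -0.05, with 21 of 35 negative. With a term for the title number the median was 0.57 and with Rar mutant 1 left out it was -0.40, so no direction can be given for oocyte genes between these groups.

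Rar mutant 1 had the lowest CPM of all 10 libraries for 34 of the 35 members. Its levels were a median of 35.2% of the control mean, from 17.1% for Sohlh1 to 99.1% for Kit, whereas the medians of the other libraries ran from 79.0% to 119%. By role, it had 30.3% for the zona genes, 41.0% for the growth factors, 24.2% for the germline transcription factors, 41.3% for the RNA regulators, 41.1% for the maternal complex, 40.2% for the other Nlrp genes and 30.3% for the chromatin genes. The other oocyte transcripts had 35.7%, and the signalling and junction genes Mos, Kit and Gja4 had 46.6%. Every role's median was low, and the members with the highest levels after Kit were Tle6 (54.0%), Ddx4 (53.6%) and Khdc3 (51.5%).

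The 44 other oocyte genes of the count table, such as Oosp2 and Pou5f1, summed to 381 CPM in Rar mutant 1 and to 783 to 1044 CPM in the other 9 libraries. In controls the 22 measured genes of meiotic prophase summed to 66.9 to 83.0 CPM. They had 64.9 and 60.1 CPM in Rar mutants 2 and 3, below all controls. They were lowest in Rar mutant 1, at 55.3 CPM against 60.1 to 83.4 CPM in the other 9 libraries. In the same library the 10 corpus luteum markers, all of them present, summed to 20448.5 CPM, the highest of the 10 libraries (9012 to 18169 CPM in the others), and the 15 granulosa markers, all present, to 4077 CPM (3602 to 8099 CPM in the others). The part of corpus luteum content in the low oocyte levels was not tested. Control 5 was at the other end, with the highest level for 21 of the 35 members.

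**Figure D3:**
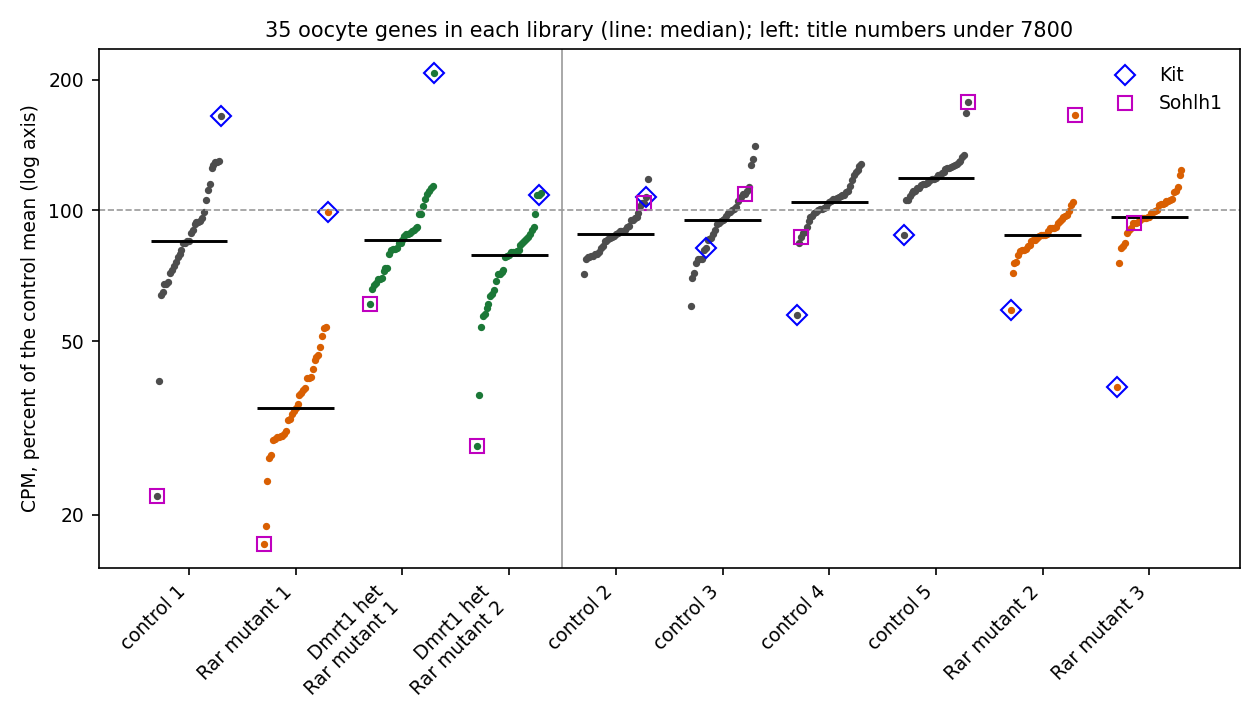
CPM of each of the 35 oocyte genes as a percentage of its mean over the 5 controls (log axis), sorted within each library, with the median as a line; Kit and Sohlh1 are outlined, and libraries of title number under 7800 are left of the grey line. Rar mutant 1 has a median of 35.2%, and in the 4 libraries of low number Kit is highest or nearly so and Sohlh1 lowest.

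Oocyte genes differed between libraries of low and high title number. In a fit of the 3 groups with a term for the title number, 12 members were lower and 1, Kit, was higher in libraries with numbers under 7800 (edgeR, adjusted p under 0.05 over 20570 genes). Over all genes 11.7% were called, 4.02% lower and 7.72% higher, and the members' median was -0.84 against -0.03. In this fit the term is estimated from control 1 against 4 controls and Rar mutant 1 against 2 Rar mutants, since both Dmrt1 het libraries had low numbers. Without Rar mutant 1, 0 members were called, 0.577% of 20462 genes were, 9 members and 4170 genes had an unadjusted p under 0.05, and the members' median was -0.36. The count of 13 rests on that library and on several others. It was 2 without Rar mutant 2 (1230 of 20465 genes called), 3 without control 4 (1265 of 20493) and 4 without control 5 (1460 of 20509). Without Rar mutant 3 it was 9 (2354 of 20442) and without control 1 it was 12 (217 of 20470). Without control 3 it was 13 (3494 of 20402) and without control 2 it was 18 (2803 of 20486). Leaving out either Dmrt1 het Rar mutant also lowered the count, with the members' median at -0.83 each time. Those fits leave 1 library in the Dmrt1 het group, so their counts are not given. In DESeq2 the members' count was 21 (20 lower, 1 higher), with 3958 of 24217 genes called. With size factors by relative log expression it was 12, with 2366 of 20570 genes called, and Kit was not called.

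The lower members, with their log2 differences, were Sohlh1 (-2.70, SE 0.50, edgeR adjusted p = 0.0125), Figla (-1.84, SE 0.45, adjusted p = 0.0309), Zar1 (-1.26), Dppa3, a protector of maternal DNA methylation (-1.24, SE 0.28, adjusted p = 0.0247), Zp3 (-1.22), the histone chaperone gene Npm2 (-1.15), Ybx2 (-1.09), H1foo (-1.08), Ooep (-1.0), Zp1 (-0.93), Tcl1 (-0.91) and Gdf9 (-0.84). Kit was at 0.92 (SE 0.26, adjusted p = 0.0492). Just short of the threshold were Lhx8 (-1.15, adjusted p = 0.0504) and Gja4 (-0.68, adjusted p = 0.0559). Members with differences nearer to 0 were Dazl (-0.09, SE 0.28), Bmp15 (-0.18, SE 0.30), Nlrp4f (-0.20, SE 0.30) and Nlrp9b (-0.25, SE 0.31). All 4 low-numbered libraries lay below all 6 others for 12 members, namely Zp3, Gdf9, Nobox, Sohlh1, Ybx2, Zar1, Ooep, Khdc3, Npm2, H1foo, Dppa3 and Tcl1, which was so for 9.5% of all genes with a mean CPM of 1 or more.

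Sohlh1 showed the widest gap (ENSMUSG00000059625, chr2:25842995-25847248, minus strand). It had 0.255 CPM in control 1, 0.197 in Rar mutant 1 and 0.705 and 0.332 in the Dmrt1 het Rar mutants, against 1.20, 1.26, 1.00 and 2.05 CPM in controls 2 to 5 and 1.91 and 1.08 in Rar mutants 2 and 3. In counts this was 6, 5, 16 and 7 against 26 to 50, with no overlap. Dppa3 (ENSMUSG00000046323, chr6:122626410-122630272, plus strand) had 21.3, 8.41, 20.5 and 16.8 CPM in the low-numbered libraries and 27.5, 31.0, 35.5, 40.6, 30.1 and 32.8 CPM in the others, again with no overlap. The control with a low number was thus low for both genes, as the Cre-positive libraries with low numbers were. Over all 35 members control 1 had a median of 85.1% of the control mean. That median was 35.2% in Rar mutant 1 and 85.8% and 79.0% in the Dmrt1 het Rar mutants. Control 1 was the highest library for 6 members and the lowest for 0.

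**Figure D4:**
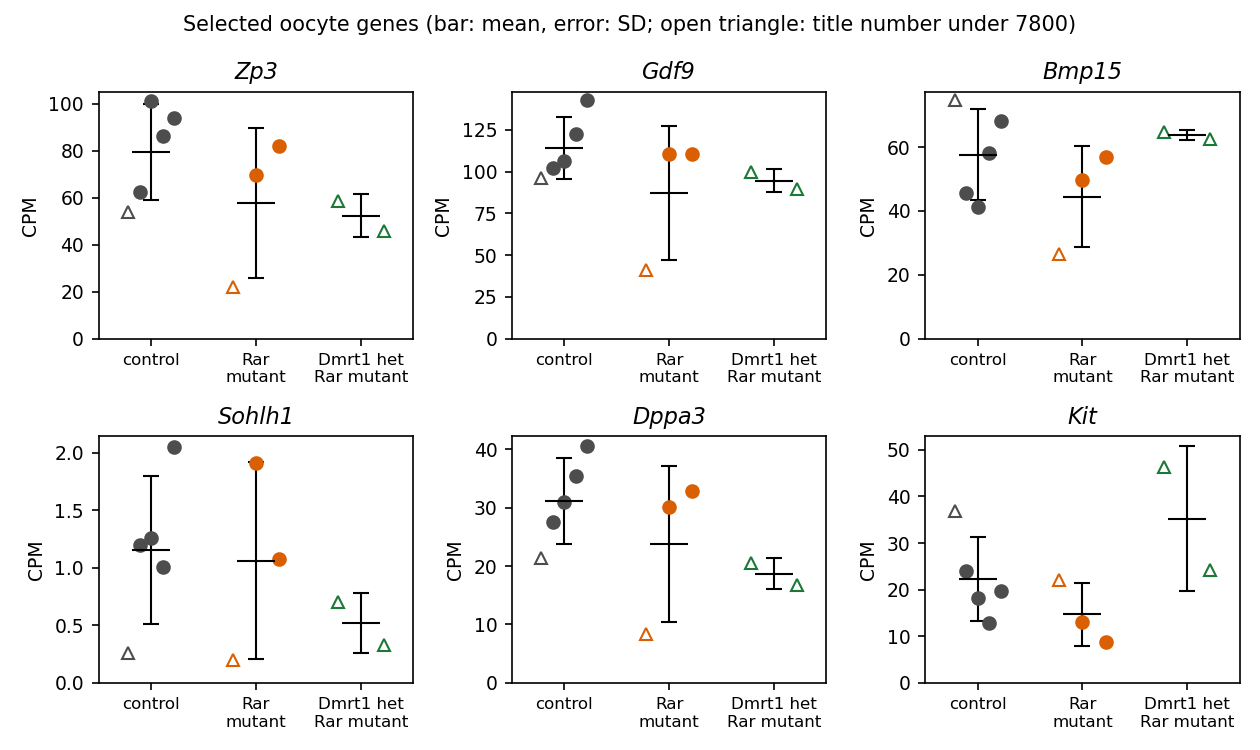
CPM of 6 oocyte genes by labelled group with mean and SD; open triangles are libraries of title number under 7800 and filled circles the others. For Sohlh1 and Dppa3 every triangle lies below every circle, whereas for Bmp15 and Kit the highest control is a triangle.

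The difference with title number followed transcript length among the oocyte genes. Across the 35 genes, the log2 difference had a Pearson r of 0.77 and a Spearman rho of 0.78 with the log2 exon length of the GENCODE M21 models (0.70 and 0.76 without Kit, the longest at 8911 bases), and over 20360 annotated genes r was 0.28. The points are genes of the same libraries, not replicates, so this is a description. The 12 shortest members (836 to 1900 bases, Figla, Dppa3, Npm2 and Zp3 among them) had a median of -1.09, and the 12 longest (3014 to 8911 bases, Kit and the Nlrp genes among them) one of -0.28. Without Rar mutant 1 these medians were -0.62 and 0.27, with r at 0.74. GC content, taken from each gene's longest transcript rather than from all its exons, went the other way (r = -0.46 for the members, -0.24 over all genes).

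The relation was there in each low-numbered library by itself. Taken as a log2 ratio to the mean of controls 2 to 5, r with exon length was 0.73 for control 1, 0.73 for Rar mutant 1, 0.77 for Dmrt1 het Rar mutant 1 and 0.68 for Dmrt1 het Rar mutant 2. For Rar mutants 2 and 3, with higher numbers, it was -0.30 and -0.14. Without Kit, r was 0.63 to 0.70 in the 4 low-numbered libraries, -0.18 for Rar mutant 2 and 0.28 for Rar mutant 3, whose sign thus rests on Kit. What sets the libraries of low number apart was not tested.

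**Figure D5:**
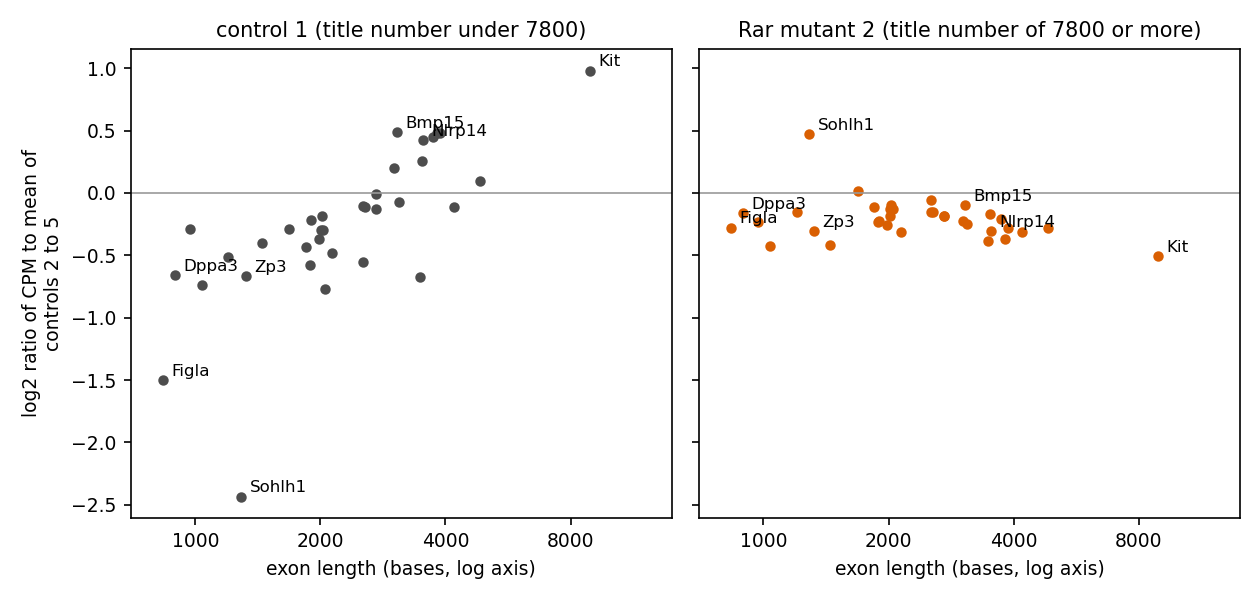
Log2 ratio of each oocyte gene's CPM to its mean in controls 2 to 5 against exon length (log axis), for control 1 and Rar mutant 2. In control 1 short genes such as Figla and Sohlh1 lie lowest and Kit highest (r = 0.73), whereas Rar mutant 2 shows r = -0.30.

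As shares of the summed member counts, which set aside how much oocyte RNA a library held, Sohlh1 took 0.0338% in libraries of low number and 0.0971% in the others (ratio 0.348), Dppa3 1.5% ± 0.0394 and 2.24% ± 0.0703 (SD over 4 and 6 libraries, ratio 0.669), Zar1 1.98% and 2.87% (0.691) and Zp3 4.03% ± 0.319 and 5.62% ± 0.726 (0.716). Bmp15 took 5.08% and 3.63% (1.4), Nlrp9b 2.20% and 1.65% (1.33), Nlrp4f 3.40% and 2.68% (1.27) and Kit 3.03% ± 0.819 and 1.116% ± 0.445 (2.71). The 4 low-numbered libraries did not overlap with the other 6 for these 8 genes. Nor did they for Ybx2, Ooep, Npm2 and Mos, whose shares were lower, 12 of the 35 in all. Such shares exist for members only, so these 12 cannot be set beside a count over all genes. In CPM, 9.5% of genes with a mean of 1 or more lay wholly below in low-numbered libraries, and 15.1% wholly above. Shares sum to a constant, so a higher share of some members lowers that of others. Padi6 (0.968), Zp2 (0.947), Oas1d (1.01) and Pabpc1l (1.01) had share ratios near 1, and their ranges overlapped.

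Kit (ENSMUSG00000005672, chr5:75574916-75656722, plus strand) differed in pattern from the other 34. It had 36.8, 24, 18.2, 12.8 and 19.6 CPM in controls, 22.1, 13.1 and 8.76 CPM in Rar mutants and 46.2 and 24.3 CPM in Dmrt1 het Rar mutants. Rar mutant 1, lowest for all other members, was the highest Rar mutant for Kit. Kit is also known from theca and interstitial cells of the ovary and from mast cells. The 10 theca markers, all present, summed to 1557 to 4283 CPM in controls, 1403 to 2405 CPM in Rar mutants and 2091 to 2816 CPM in Dmrt1 het Rar mutants. Of 8 mast cell markers 6 were in the table, summing to 4.51 to 5.79, 4.26 to 6.44 and 3.44 to 5.89 CPM in the 3 groups, with Cpa3, Mcpt4 and Tpsab1 under 10 counts in every library. Their part in the Kit levels was not tested.

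Among the 44 other oocyte genes, 0 were called by edgeR against controls in Rar-deleted, Rar mutant or Dmrt1 het ovaries (at an unadjusted p under 0.05, 0, 0 and 1). Their medians against controls were -0.36 in all Rar-deleted ovaries, -0.34 in Rar mutants and -0.35 in Dmrt1 het Rar mutants. Between low and high title numbers, where 4.02% of all genes were lower and 7.72% higher, 6 of the 44 were lower and 0 higher (median -0.77): Izumo1r, which encodes the sperm receptor JUNO (-1.38, SE 0.27), Pou5f1, Mael, Eif4e1b, Omt2a and Omt2b. Of the 17 meiotic prophase genes tested 1, Syce2, of the synaptonemal complex, was lower (-0.79, SE 0.18), a share near that of all genes. The 21 genes through which granulosa cells answer or feed the oocyte, such as Kitl, Gja1 and the GDF9 receptor genes, had 0 calls in the genotype comparisons. Their median in Rar-deleted ovaries was 0.23, with 3 genes at an unadjusted p under 0.05 (edgeR), and -0.02 with a term for the title number. Against controls it was 0.07 in Rar mutants and 0.39 in Dmrt1 het Rar mutants, each with 6 genes at that p. Between the mutant groups it was 0.28, with 8 genes. Between title numbers 3 of the 21 were higher: Tgfbr1 (1.16, SE 0.18), which encodes the type 1 receptor for GDF9, Bmpr2 (0.80, SE 0.18), its type 2 receptor, and Smad5 (0.53, SE 0.11), a mediator of BMP signals. Of 15 granulosa markers, Amh (-1.46, SE 0.27) and Kctd14 (-0.88, SE 0.24) were lower there. Markers of other cell types were called in the same contrast: 3 of 5 erythroid markers lower (median -1.60), 5 of 12 surface epithelium markers lower and 1 higher (median -0.66), 2 of 8 oviduct markers lower (median -0.69), 2 of 10 corpus luteum markers higher (median 0.38), and 1 endothelial and 1 macrophage marker, each of 10, higher. Of 10 theca markers 0 were called by edgeR, and 0 had an unadjusted p under 0.05. The part of these cell types in the oocyte differences was not tested. The calls in other lists were not recomputed without Rar mutant 1.

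The authors' deposited table of their own comparison lists 185 genes, against 24306 in the count table, and 0 of the 35 oocyte genes are among them. With so small a part of all genes listed, 0 of 35 does not set oocyte genes apart. Some counts are uncertain for reasons of annotation: Obox1, Nlrp4f, Nlrp9b, Oas1d and Tcl1 have close relatives, Obox1 and Npm2 overlap genes on the same strand (Obox2, Xpo7), and Btg4 and Nlrp2 overlap genes on the opposite strand, where it is not given in the sources used here whether counting used the strand.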

How the data were processed

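Whole ovaries of 10 libraries were profiled by polyA RNA sequencing with a stranded kit, per the labels' protocols. Per the submitters' processing notes, Trimmomatic 0.32, STAR 2.4.2a, SAMtools 1.0 and DESeq2 1.12.3 were used with GRCm38 (mm10). The counting tool, its strand setting and the annotation release are not given in the sources used here. The deposited tables hold raw counts per gene and, separately, FPKM values that the authors scaled between libraries: deposited FPKM were proportional to counts divided by median-of-ratios size factors (median CV of that ratio 0.039% over 7264 genes). The authors' deposited comparison table gives mean normalised counts (a signal), log2 fold changes, test scores and p-values for 185 genes, and its means matched those over controls and Rar mutants within 0.0348%.

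CPM are counts over the library total. Tests used edgeR 4.0.16 in R 4.3.3 (quasi-likelihood, TMM, filterByExpr, robust, two-sided, Benjamini-Hochberg adjusted p under 0.05 over all genes tested). The SE of a log2 fold change is approximate, the fold change over the square root of F. A first fit held 2 groups (all Rar-deleted, control), another the 3 labelled groups. Alternatives were DESeq2 1.42.0, other size factors, no filter, a title-number term, a replicate block, the libraries of title number 7800 or more alone, and each library left out. The fitting code was tested on simulated data. No fit dropped or imputed a library unless stated. Named with full statistics were members called, otherwise the 3 smallest p, the extreme fold changes and the 3 most abundant members. Members and lists were chosen with earlier results of these data known.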

Additional observations from a re-analysis of the deposited data

Results flagged for a closer look

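Of 72 groups of 5 libraries examined for a single library standing off from the rest, 5 were marked, and about 1 in 20 such groups is marked by chance. The groups are not independent, since all genes come from the same libraries and 1 library, Rar mutant 1, was lowest for 34 of the 35 genes. In the controls, Pabpc1l, which encodes a poly(A)-binding protein of the oocyte, was at 10 CPM in control 5, with the next control at 7.74 CPM. The other 4 were low values of Rar mutant 1 among the 5 Rar-deleted ovaries. Pabpc1l was at 2.45 CPM there (next lowest 7.07), Nobox at 5.53 CPM (15.5), Oas1d at 11.2 CPM (25.4) and Tle6 at 45.6 CPM (67.9).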

How the results depend on the processing

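In the genotype comparisons, 0 oocyte genes were called under every alternative run (DESeq2, size factors by relative log expression, no low-count filter, title-number term, replicate block, libraries of title number 7800 or more alone, and each library left out). The size and direction of their differences depended on the libraries used. Leaving out the libraries of low title number leaves 2 Rar mutants and 4 controls, so that the Rar-deleted and Rar mutant comparisons become the same fit, with a members' median of -0.05. The title-number term gave a median of 0.19 for Dmrt1 het Rar mutants against controls and 0.57 against Rar mutants, while Rar mutants against controls stayed at -0.34 with 34 of 35 negative. The cause of these shifts was not tested.

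Same-numbered libraries of different groups had correlations of their deviations from -0.0953 to 0.442, so the numbers were not taken to pair libraries. With the replicate block, 0 genes were called in Rar-deleted ovaries and 0 in Dmrt1 het Rar mutants against controls, and the medians were -0.07 for Dmrt1 het Rar mutants against controls and 0.24 against Rar mutants. The block also turned the direction of Kit in Rar-deleted ovaries (-0.45), of Sohlh1 in Rar mutants (0.24), and of Zp3 (0.23), Padi6 (0.24) and Gdf9 (0.24) between the mutant groups. No block was fitted for the title-number contrast, since block and number nearly coincide.

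Over all genes, DESeq2 called 180 in Rar-deleted ovaries, 372 in Rar mutants and 329 in Dmrt1 het Rar mutants against controls, 626 between the mutant groups and 3958 between title numbers, where it called 21 members. With the title-number term the first 3 counts were 40, 85 and 1, and the single fit of libraries of high title number called 142. With 2 genotype groups, the title-number contrast called 5250 genes, with a members' median of -0.55.

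The title-number term turned Kit in Rar-deleted ovaries (-0.54; -0.70 in libraries of high number alone) and Sohlh1 in Rar mutants (0.10 and 0.18). In Dmrt1 het Rar mutants against controls it gave 0.01 for Gja4, 0.17 for Dppa3, -0.10 for Kit, 1.19 for Sohlh1, 0.28 for Zp3, 0.15 for Padi6 and 0.31 for Gdf9. Against Rar mutants it gave 1.08 for Sohlh1, 0.69 for Zp3, 0.55 for Padi6 and 0.63 for Gdf9.

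With each library left out in turn, genes called ran from 5 to 52 in Rar-deleted ovaries, 1 to 384 in Rar mutants and 0 to 364 in Dmrt1 het Rar mutants against controls, 0 to 335 between the mutant groups and 118 to 3494 between title numbers. Members called between title numbers ran from 0 to 18. The members' median ran from -0.70 to 0.00 in Rar mutants against controls, -0.40 to 0.28 between the mutant groups and -1.53 to -0.36 between title numbers. Against controls, Kit ran from -0.39 to 0.26 in Rar-deleted ovaries, and in Rar mutants Sohlh1 ran from -0.74 to 0.44, Zp3 from -0.81 to 0.01 and Gdf9 from -0.59 to 0.04. Between the mutant groups Zp3 ran from -0.72 to 0.11, Padi6 from -0.37 to 0.28 and Gdf9 from -0.41 to 0.23. The ends at or above 0 in Rar mutants against controls are without Rar mutant 1. Where 1 library of a group was left, it was assumed to vary like the other groups. Low counts limit Sohlh1 and Figla most.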
